A study of Mus musculus with 21 samples.

Results

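The mice compared here carried the same transgene, for a human TDP-43 with a defective nuclear localization signal (DeltaNLS, here dNLS), and differed in whether they also carried its driver. The 5 arrays titled tTA/TDP-DeltaNLS came from dNLS bigenic mice, genotype +/+, with the TDP-43 and the tTA transgene. The 4 arrays titled Monogenic DeltaNLS came from dNLS monogenic mice, genotype +/-, with the TDP-43 transgene and no tTA. They are 9 of the 21 arrays of the series and were chosen by these titles alone. All 9 mice were of line NLS4 on a mixed C57BL/6J x C3HeJ background and had been off a doxycycline diet for 2 weeks. The bigenic group held 4 males and 1 female (replicate 5), the monogenic group 3 males and 1 female (replicate 4). The age of the mice is not given in the sources used here. For reference, the series also held 8 nontransgenic mice (-/-; 6 of line NLS4 and 2 of line WT12) and 4 WT bigenic mice of line WT12 (tTA/TDP-WT, +/+), whose transgene encodes wild-type TDP-43. RNA of the cerebral cortex was measured with 1 Affymetrix MOE430A v2.0 array for each mouse.

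TDP-43 is an RNA-binding protein that resides mainly in the nucleus, where it takes part in splicing and in control of RNA stability, including that of its own transcript. In amyotrophic lateral sclerosis and frontotemporal dementia it is lost from the nucleus of affected neurons and gathers in the cytoplasm, and the dNLS form was made to model that shift. The tetracycline transactivator tTA binds and switches on the transgene when doxycycline is absent; in these mice, as generally described, it is expressed from the Camk2a promoter in forebrain excitatory neurons. The comparison of bigenic with monogenic mice asks what follows when the transgene is driven, in animals of 1 line that all carry it. No group carried tTA alone, so effects of tTA and of dNLS TDP-43 cannot be told apart, and all 9 mice are of 1 transgenic line.

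The deposited values, from 2.04 to 15.1, were taken as log2 levels from their span, since their scale is not stated in the sources used here; a difference of 1 is then a 2-fold change. The lowest value, 2.04, is shared by 32.2% to 32.4% of each array's probe sets and marks signals that were not measured above it. The medians of the 9 arrays lay between 5.85 and 6.02. Xist matched the labelled sex on 9 of 9 arrays and on 20 of all 21; the 1 reference array that did not match was fitted with its labelled sex. Genes of excitatory neurons, which mark cortex, averaged 10.50 to 11.27 on them. The first principal component, 45.8% of the variance of these 9 arrays, placed the 5 bigenic arrays between 12.9 and 27.3 and the 4 monogenic arrays between -26.7 and -21.7. The second, 18.4%, placed dNLS monogenic 2 (-29.4) and dNLS bigenic 5 (-20.9) apart from the others. The excess of 3' over 5' signal of beta-actin, which grows with RNA breakdown or short labelling, was 1.75 ± 0.35 (SD, n = 5) in bigenic and 2.00 ± 0.76 (SD, n = 4) in monogenic mice (two-sided exact permutation test, p = 0.619). It was highest on dNLS monogenic 2, at 3.13. The excess of 3' over middle signal of Gapdh was 0.42 to 0.47 in bigenic and 0.47 to 0.69 in monogenic mice, with no overlap (exact permutation p = 0.00794, adjusted over 4 measures 0.0317). Among the reference arrays the beta-actin excess was 8.20 on nontransgenic 6, 4.70 on nontransgenic 4 and 1.37 to 3.27 on the others. Nontransgenic ranges given below include nontransgenic 4 and 6, and the part of 3' bias in those ranges was not tested.

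Driving the transgene went along with broad change. Of 12393 genes, each read by its brightest probe set, 1773 differed between bigenic and monogenic mice at an adjusted p under 0.05 in limma, which is 14.3% of the genes tested. Of these 962 were higher in bigenic mice (7.76%) and 811 lower (6.54%). The change reached 2-fold in 168 of the higher (1.36% of all genes) and 132 of the lower genes (1.07%). For 2303 genes (18.6%) the values of both groups did not overlap, 1271 higher (10.3%) and 1032 lower (8.33%), and 1504 of the 1773 called genes were among them. The median change over all genes was 0. At the lowest value on all 9 arrays lay 3299 genes, in which no change could be seen. Since whole cortex was measured, fewer cells of a type and less RNA per cell cannot be told apart in any of these changes.

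**Figure D1:**
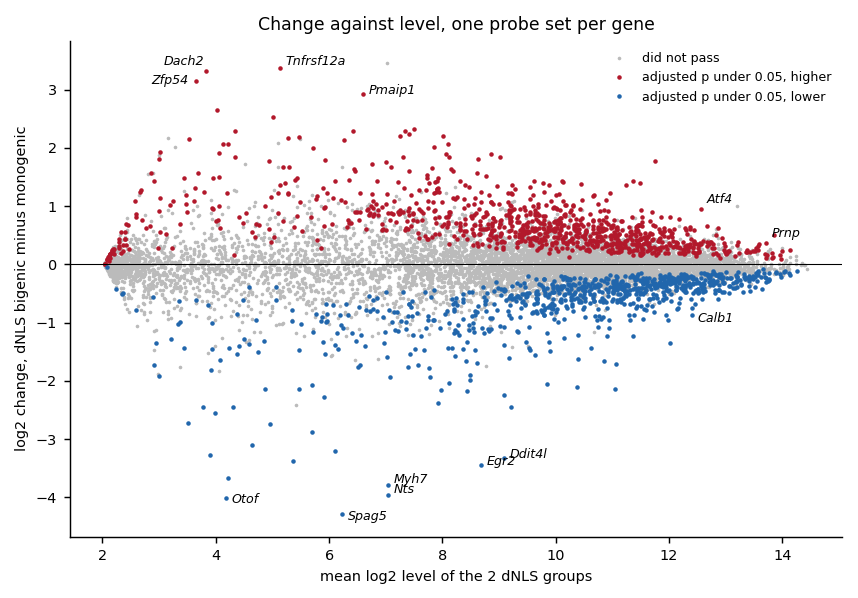
Each point is 1 of 12393 genes, with the mean log2 level of both dNLS groups on the horizontal axis and the log2 change, bigenic minus monogenic, on the vertical axis. Red and blue points are the 962 higher and 811 lower genes past an adjusted p of 0.05; the largest changes, from Spag5 at -4.29 to Tnfrsf12a at 3.36, lay at low and middle levels, and toward the highest levels the changes called were small.

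The largest decrease was that of Spag5, which encodes astrin, a protein of the mitotic spindle that also binds microtubule regulators in cells that do not divide. Its log2 levels were 4.10, 4.43, 3.49, 3.39 and 5.05 in the bigenic mice and 8.09, 9.16, 8.02 and 8.21 in the monogenic mice. The groups lay over 2 log2 units apart at their nearest values, and nontransgenic mice (8.10 to 9.49) lay with the monogenic ones. The change was -4.29 ± 0.36 (SE, adjusted p = 5.36e-07), a 19.5-fold lower level by its brightest probe set. Over the alternatives tried it kept its call, but the change ran from -4.63 to -1.70, so its size depended on the processing. Otof encodes otoferlin, a calcium sensor of transmitter release best known from hair cells of the ear. It read 2.04, 2.10, 2.04, 2.06 and 2.62 in the bigenic mice and 6.46, 6.52, 6.36 and 5.37 in the monogenic mice, a change of -4.00 ± 0.58 (SE, adjusted p = 0.000127). In bigenic mice Otof lay at or close to the lowest measurable value, below which a lower level could not have been seen. Pkp2, a plakophilin of desmosomes, read 3.19, 3.59, 3.65, 3.68 and 4.29 in the bigenic mice and 7.30, 7.94, 7.09 and 5.84 in the monogenic mice. It fell by 3.38 on the log2 scale with no overlap (adjusted p = 0.000769). Its change ran from -3.91 to -1.42 over the alternatives. Ddit4l, an inhibitor of mTORC1 signalling, was a bright gene among the largest decreases, at 7.97, 8.50, 7.60, 6.31 and 6.80 in the bigenic mice and 10.22, 11.28, 10.72 and 10.76 in the monogenic mice. Its change was -3.32 ± 0.34 (SE, adjusted p = 4.55e-06), and all 5 bigenic mice lay below the nontransgenic range of 10.58 to 11.23.

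Smoc2, a secreted calcium-binding protein of the matrix, read 4.71, 3.96, 3.87, 4.44 and 4.37 in the bigenic mice and 7.21, 7.24, 6.96 and 7.14 in the monogenic mice, a tight separation with a change of -2.88 ± 0.31 (SE, adjusted p = 6.36e-06). Abi3bp, another matrix protein, varied more, at 2.95, 3.82, 3.70, 6.18 and 5.78 in the bigenic mice and 7.87, 7.82, 6.69 and 8.54 in the monogenic mice (change -3.21 ± 0.68 SE, adjusted p = 0.00339). The groups did not overlap, with 6.18 as the highest bigenic and 6.69 as the lowest monogenic value. Over the alternatives the changes ran from -3.01 to -1.50 in Smoc2 and from -3.67 to -1.95 in Abi3bp. Egr2, an activity-induced zinc finger transcription factor, spread widely in bigenic mice, with 9.70, 6.53, 8.16, 5.70 and 4.73 in the bigenic mice and 10.99, 10.46, 10.03 and 10.05 in the monogenic mice. Its change of -3.45 ± 0.76 (SE, adjusted p = 0.00439) passed in the full fit and not in the males alone (adjusted p = 0.109). Nts, the neuropeptide neurotensin, was the 1 gene of the 15 largest decreases whose groups overlapped, at 2.41, 4.96, 3.24, 7.48 and 7.04 in the bigenic mice and 10.14, 8.87, 10.27 and 6.88 in the monogenic mice. It changed by -3.97 ± 1.07 (SE, adjusted p = 0.0179). Nts lost this call when each of dNLS bigenic 1 and dNLS monogenic 1 and 3 was left out (adjusted p = 0.0505 to 0.0738), and on the 9 dNLS arrays alone its adjusted p was 0.0931. The remaining members of the 15 were Tchh (-3.11), Traip (-2.74) and Doc2b (-2.56), the last a calcium sensor of vesicle release, and Susd2, Rnf207 and 2 myosin genes, described below.

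Among the largest increases, Tnfrsf12a led. It encodes Fn14, the receptor of the cytokine TWEAK, known to be induced in injured tissue. Its levels were 7.32, 6.50, 7.09, 6.42 and 6.78 in the bigenic mice and 3.51, 3.46, 3.59 and 3.26 in the monogenic mice. Both groups were narrow and far apart, and nontransgenic mice (3.34 to 4.51) lay with the monogenic ones. The change was 3.36 ± 0.30 (SE, adjusted p = 8.73e-07), 10.3-fold. Pmaip1, the BH3-only protein Noxa that promotes cell death, read 9.19, 7.77, 8.45, 7.40 and 7.48 in the bigenic mice and 5.27, 5.60, 4.99 and 4.68 in the monogenic mice (change 2.93 ± 0.66 SE, adjusted p = 0.00524). Alg3, a mannosyltransferase of N-glycan assembly in the endoplasmic reticulum, read 8.53, 8.75, 8.77, 9.15 and 8.12 in the bigenic mice and 6.04, 6.75, 6.49 and 6.06 in the monogenic mice, a change of 2.32 ± 0.24 (SE, adjusted p = 4.56e-06). Gla, lysosomal alpha-galactosidase A, read 5.68, 5.55, 4.98, 5.54 and 5.70 in the bigenic mice and 3.17, 3.59, 3.21 and 2.77 in the monogenic mice (change 2.30 ± 0.20 SE, adjusted p = 9.64e-07). In each of these 3 genes the lowest bigenic value exceeded the highest monogenic value by more than 1 log2 unit. Over the alternatives the change of Gla ran from 1.15 to 2.43.

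Etaa1, an activator of the DNA damage kinase ATR, rose by 2.28 ± 0.31 (SE, adjusted p = 7.67e-05), from 5.004, 5.46, 5.73 and 4.91 in monogenic to 7.64, 7.27, 7.68, 7.52 and 7.80 in bigenic mice. Hspb3, a small heat shock protein, rose from 6.06, 6.06, 6.02 and 6.47 to 8.52, 8.52, 8.39, 8.30 and 8.02 (change 2.20 ± 0.27 SE, adjusted p = 2.25e-05). Both were narrow within groups. Rpp40, a subunit of the RNase P and RNase MRP complexes, read 6.24, 5.81, 6.50, 6.31 and 6.46 in the bigenic mice and 3.49, 4.18, 3.66 and 3.68 in the monogenic mice (change 2.54 ± 0.59 SE, adjusted p = 0.00677), but the nontransgenic mice spanned 3.09 to 7.25 and so covered both groups. Mettl27, a methyltransferase-like gene, rose by 2.64 ± 0.30 (SE, adjusted p = 1.03e-05). The remaining increases of the 15 were Cars and Mthfd2, described below, and Opn3 (2.20), the protease gene Fap (2.18), Snx30 (2.17), Dach2 and Zfp54. None of the 15 overlapped between groups, which is a property of genes picked for their change.

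**Figure D2:**
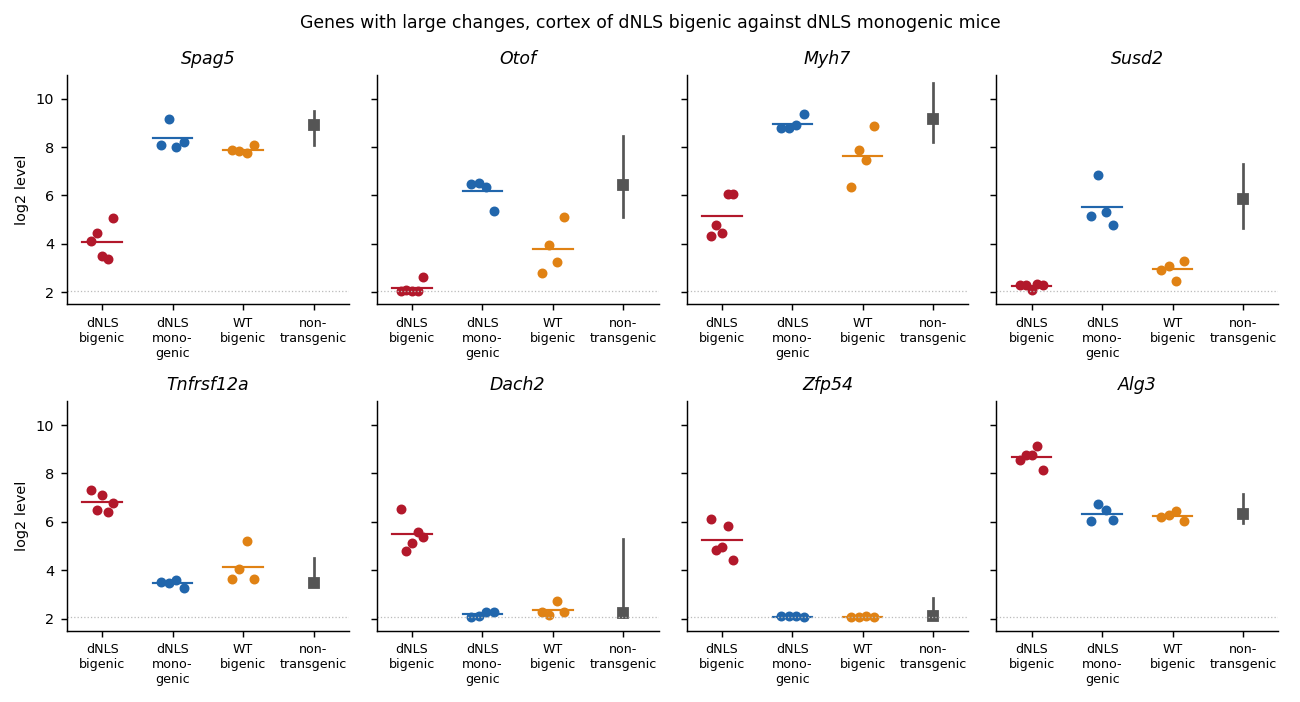
Log2 levels of 8 genes with large changes. Points are single arrays of dNLS bigenic, dNLS monogenic and WT bigenic mice with a line at the group mean; the square and bar are the median and range of the 8 nontransgenic mice, and the dotted line is the lowest value of 2.04. In all 8 panels the bigenic points lie clear of the monogenic points, while the WT bigenic points of Otof and Susd2 lie between them.

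Close to a switch came 4 genes, counted as within 0.5 of the lowest value in every mouse of 1 group and more than 2 units above it in every mouse of the other. Dach2, a transcription factor of the dachshund family, read 6.51, 4.80, 5.11, 5.56 and 5.39 in the bigenic mice and 2.07, 2.11, 2.26 and 2.25 in the monogenic mice. Zfp54, a zinc finger protein, read 6.11, 4.85, 4.97, 5.82 and 4.41 in the bigenic mice and 2.09, 2.09, 2.08 and 2.05 in the monogenic mice. Both were near the lowest value without the driver and clearly present with it, with changes of 3.32 ± 0.51 (SE, adjusted p = 0.000234) and 3.14 ± 0.26 (SE, adjusted p = 4.44e-07). A nontransgenic mouse reached 5.29 for Dach2, so its low level without tTA was not uniform across the series. Rnf207, a RING finger protein studied in heart, and Susd2, a membrane protein with a sushi domain, showed the reverse. Rnf207 read 2.08, 2.08, 2.06, 2.07 and 2.45 in the bigenic mice and 4.84, 5.65, 4.51 and 4.44 in the monogenic mice, and Susd2 2.30, 2.31, 2.09, 2.35 and 2.31 in the bigenic mice and 5.14, 6.86, 5.34 and 4.78 in the monogenic mice. Their changes were -2.72 ± 0.43 (SE, adjusted p = 0.000261) and -3.27 ± 0.45 (SE, adjusted p = 8.01e-05), and the highest bigenic value of each lay under 2.5.

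Genes of striated muscle contraction, a list added after the values were seen, stood among the decreases. Of 41 measured genes 5 fell and 0 rose, against 6.54% and 7.76% of all genes, and 16 of the 41 lay at the lowest value on all 9 arrays. Myh7, the slow and cardiac myosin heavy chain, read 4.31, 4.77, 4.46, 6.08 and 6.05 in the bigenic mice and 8.78, 8.78, 8.91 and 9.36 in the monogenic mice. Myh1, a fast skeletal myosin heavy chain, read 2.04, 2.07, 2.10, 2.04 and 3.69 in the bigenic mice and 5.17, 6.06, 6.32 and 6.67 in the monogenic mice. Changes were -3.79 ± 0.49 (SE, adjusted p = 4.6e-05) and -3.67 ± 0.54 (SE, adjusted p = 0.00015). In Myh1, 4 of the 5 bigenic values lay at or near the lowest value and the fifth, the female, was at 3.69. Tnnc1, the slow and cardiac troponin C, was much brighter and fell by 2.45 on the log2 scale, from 10.26, 10.48, 10.05 and 10.96 in monogenic to 7.81, 8.02, 8.40, 7.70 and 7.91 in bigenic mice (SE 0.20, adjusted p = 4.07e-07). Ryr1, the calcium release channel of skeletal muscle that neurons also express, read 6.91, 6.71, 6.54, 7.62 and 7.67 in the bigenic mice and 9.16, 9.09, 9.37 and 8.87 in the monogenic mice (change -2.03 ± 0.29 SE, adjusted p = 0.000102). Myl4, an atrial and embryonic myosin light chain, read 8.74, 8.59, 9.39, 8.79 and 8.78 in the bigenic mice and 10.11, 10.73, 10.23 and 10.58 in the monogenic mice (change -1.56 ± 0.25 SE, adjusted p = 0.000347). None of these 5 genes overlapped between groups.

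ATF4 and CHOP (gene Ddit3) are the transcription factors of the integrated stress response, in which phosphorylation of eIF2 alpha slows translation in general and favours that of ATF4. ATF4 then raises genes of amino acid supply and tRNA charging. It binds, with a partner, the C/EBP-ATF response element, whose letters are TGATGNAA. Shown are 4 promoters that hold these letters upstream of the start, 2 of stress genes with large changes and 1 each of amino acid supply and tRNA charging, so that the element can be seen in its setting. They are the 250 bases before the RefSeq transcription start in GRCm38.p6, on the gene's strand, and capitals mark the element, read on the reverse strand as TTNCATCA.
Chac1, chr2:119350992-119351241, + strand: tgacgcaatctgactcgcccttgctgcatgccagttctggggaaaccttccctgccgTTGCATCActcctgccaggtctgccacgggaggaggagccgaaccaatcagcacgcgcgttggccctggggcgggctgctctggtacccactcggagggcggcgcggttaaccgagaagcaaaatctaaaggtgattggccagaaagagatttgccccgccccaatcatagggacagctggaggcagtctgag
Atf3, chr1:191183334-191183583, - strand: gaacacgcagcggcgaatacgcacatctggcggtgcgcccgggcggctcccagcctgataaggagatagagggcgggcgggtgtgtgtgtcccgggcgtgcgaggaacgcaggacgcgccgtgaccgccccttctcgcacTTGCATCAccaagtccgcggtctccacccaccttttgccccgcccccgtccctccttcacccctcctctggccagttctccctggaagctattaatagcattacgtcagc
Asns, chr6:7693210-7693459, - strand: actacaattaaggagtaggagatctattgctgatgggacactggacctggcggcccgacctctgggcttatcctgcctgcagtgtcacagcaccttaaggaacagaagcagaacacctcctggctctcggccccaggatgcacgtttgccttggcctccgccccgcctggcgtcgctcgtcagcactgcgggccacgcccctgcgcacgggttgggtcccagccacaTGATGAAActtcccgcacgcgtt
Tars, chr15:11399659-11399908, - strand: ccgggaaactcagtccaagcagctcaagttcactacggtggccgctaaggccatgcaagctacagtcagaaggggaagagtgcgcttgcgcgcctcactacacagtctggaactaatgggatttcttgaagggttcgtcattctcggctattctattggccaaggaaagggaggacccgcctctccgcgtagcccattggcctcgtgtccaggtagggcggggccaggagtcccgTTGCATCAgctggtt
The element begins 193 bases before the start in Chac1, 110 in Atf3, 23 in Asns and 15 in Tars. It runs forward in Asns and in reverse in the other 3.

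Counted in the 300 bases from 250 before to 50 after each start, on both strands, these letters occurred in 1304 of 32851 promoters (3.97%) and in 309 of the 9882 promoters of genes on the array (3.13%). They were held by 8 of the 23 stress-list promoters given, 3 of 10 among genes that rose and 5 of 13 among the others. Among synthetases they were held by 5 of 11, 4 of 6 among those that rose (Aars, Iars, Tars and Yars) and 1 of 5 among the others. The letters thus stood in promoters of genes that rose and of genes that did not.

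The ATF4 and CHOP list rose in part. Of 25 measured genes 11 were higher in bigenic mice and 0 lower (44% against 7.76% of all genes), the median change was 0.28 against 0 over all genes, and 3 of the 25 lay at the lowest value. Atf4 itself, a bright gene, read 13.10, 12.89, 13.11, 12.92 and 13.15 in the bigenic mice and 12.24, 12.03, 12.08 and 11.98 in the monogenic mice. The groups did not overlap and the change was 0.95 ± 0.17 (SE, adjusted p = 0.000974). Ddit3 read 11.53, 10.95, 11.24, 11.10 and 11.43 in the bigenic mice and 10.33, 10.28, 10.10 and 9.61 in the monogenic mice (change 1.17 ± 0.18 SE, adjusted p = 0.000181). Its lowest bigenic value exceeded the highest monogenic value by about 0.6. Atf3, a stress-induced partner of these factors, lay at 2.04 or 2.05 in all 4 monogenic mice and read 3.93, 2.06, 3.17, 2.11 and 4.27 in bigenic mice, so that it was clear of the lowest value in 3 of 5. Its change of 1.08 ± 0.32 (SE, adjusted p = 0.0309) was fragile: Atf3 lost this call when each of dNLS bigenic 1, 3 and 5 and dNLS monogenic 1, 2, 3 and 4 was left out (adjusted p = 0.0575 to 0.0997). Atf5, which is regulated in the same way as Atf4, rose by 1.04 ± 0.19 (SE, adjusted p = 0.00116).

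Target genes of the response showed a range of sizes. Mthfd2, the mitochondrial one-carbon enzyme, read 8.86, 8.15, 8.40, 8.21 and 8.99 in the bigenic mice and 6.15, 6.66, 6.12 and 6.25 in the monogenic mice, a change of 2.23 ± 0.44 (SE, adjusted p = 0.00182). Chac1, which breaks down glutathione, read 8.56, 7.46, 7.65, 7.50 and 8.19 in the bigenic mice and 6.00, 6.50, 6.13 and 5.86 in the monogenic mice (change 1.75 ± 0.46 SE, adjusted p = 0.0138). Both were high in every bigenic mouse, highest in replicates 1 and 5, and the highest nontransgenic value was 8.56 for each, inside the bigenic range of Mthfd2 and level with the highest bigenic value of Chac1. Shmt2, a serine hydroxymethyltransferase, overlapped between groups, at 9.04, 7.96, 8.78, 8.15 and 9.39 in the bigenic mice and 6.88, 8.10, 7.14 and 6.59 in the monogenic mice (change 1.48 ± 0.41 SE, adjusted p = 0.0208). Shmt2 lost this call when each of dNLS bigenic 1 and 5 and dNLS monogenic 1, 3 and 4 was left out (adjusted p = 0.0513 to 0.0847). Asns, asparagine synthetase, rose by 0.33 ± 0.06 (SE, adjusted p = 0.00108), and its narrow groups did not overlap. The amino acid transporters Slc7a3 (0.96) and Slc3a2 (0.33) and the transcription factor Cebpg (0.28) completed the 11. Slc3a2 lost its call without any 1 of dNLS bigenic 1 and 5 and dNLS monogenic 1 and 3 (adjusted p = 0.052 to 0.0734) and Cebpg without any 1 of dNLS bigenic 1, 2, 3 and 5 and dNLS monogenic 1, 3 and 4 (adjusted p = 0.0522 to 0.109). Trib3, Stc2 and Fgf21, known targets of ATF4 or CHOP, lay at the lowest value on all 9 arrays, and Ddit4 (0.02, adjusted p = 1) and Nupr1 (-0.36, adjusted p = 0.699) did not pass. The count fell from 11 to 7 when each of dNLS bigenic 1, dNLS bigenic 5, dNLS monogenic 1 and dNLS monogenic 3 was left out, and its range over left-out arrays was 7 to 12.

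Cytosolic aminoacyl-tRNA synthetases, which join amino acids to their tRNAs, changed in the same direction. Of 18 measured, 11 rose and 0 fell (61.1% against 7.76%), with a median change of 0.56. The count was 10 to 13 with 1 array left out and 12 after centring of the arrays. Per array, the mean log2 level over the 18 genes was 10.64 to 10.75 on the bigenic and 10.09 to 10.18 on the monogenic arrays, so that every bigenic array lay above every monogenic one. Cars, the synthetase for cysteine, read 8.38, 8.63, 8.61, 8.56 and 8.21 in the bigenic mice and 6.76, 4.90, 6.13 and 7.02 in the monogenic mice, a change of 2.29 ± 0.35 (SE, adjusted p = 0.000214). The low monogenic value of 4.90 was that of replicate 2. Yars, for tyrosine, read 10.80, 10.74, 10.68, 10.54 and 10.95 in the bigenic mice and 9.87, 10.23, 9.75 and 9.98 in the monogenic mice (change 0.78 ± 0.10 SE, adjusted p = 4.56e-05), and Rars, for arginine, 11.38, 11.24, 11.31, 11.24 and 11.19 in the bigenic mice and 10.65, 10.48, 10.57 and 10.63 in the monogenic mice (change 0.68 ± 0.14 SE, adjusted p = 0.0027). Aars, for alanine, read 11.87, 11.72, 11.68, 11.47 and 12.20 in the bigenic mice and 10.93, 11.37, 10.97 and 11.18 in the monogenic mice (change 0.68 ± 0.14 SE, adjusted p = 0.00317). Tars, for threonine, read 9.71, 9.90, 9.75, 9.70 and 9.89 in the bigenic mice and 9.28, 9.26, 9.26 and 9.11 in the monogenic mice (change 0.57 ± 0.11 SE, adjusted p = 0.00236). These 5 did not overlap. Vars, for valine, was dim, with 3.06 as the lowest bigenic and the highest monogenic value (1.08 ± 0.23 SE, adjusted p = 0.00359). Of the others, Sars, Lars, Kars, Wars and Iars rose by 0.49 to 0.66, and Gars (-0.09, adjusted p = 0.661) and Farsb (-0.01, adjusted p = 1) were the 2 with a change below 0. Iars lost its call without dNLS monogenic 4 (adjusted p = 0.0505), and Vars did not pass on the 9 dNLS arrays alone (adjusted p = 0.0647).

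**Figure D3:**
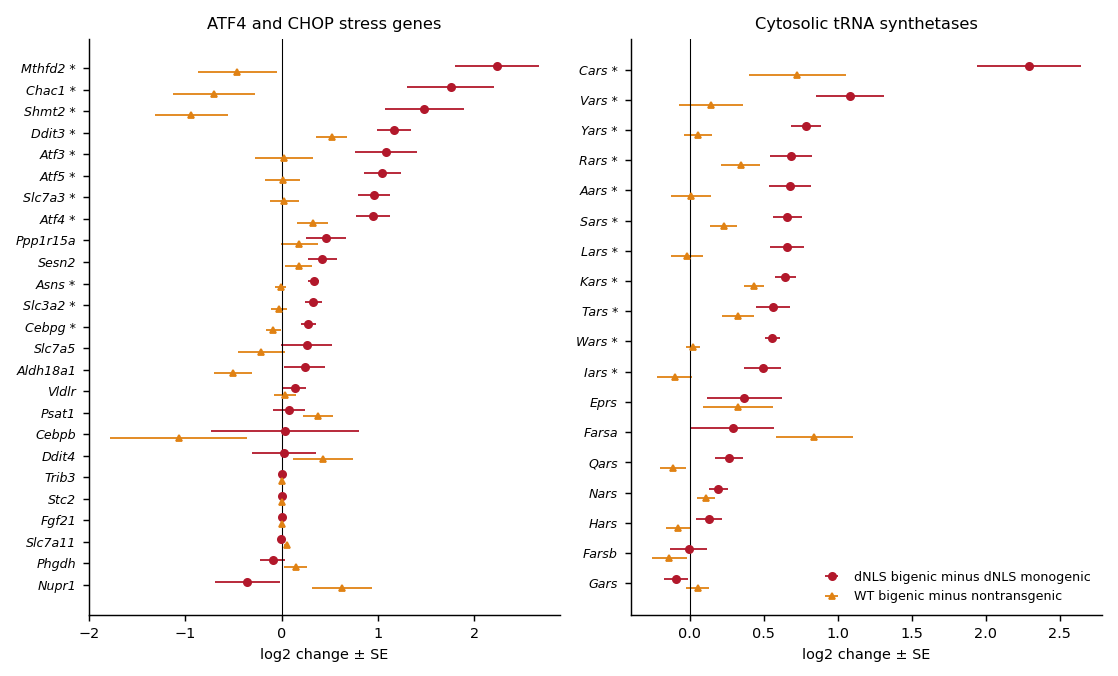
Log2 change ± SE of every measured gene of the ATF4 and CHOP list (left) and of the cytosolic tRNA synthetases (right). Circles are dNLS bigenic minus dNLS monogenic and triangles WT bigenic minus nontransgenic; an asterisk marks an adjusted p under 0.05 in the dNLS comparison, reached by 11 of 25 and 11 of 18 genes, all to the right of 0.

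Of 22 genes of endoplasmic reticulum chaperones and the unfolded protein response, 2 rose (9.09% against 7.76% of all genes) and 3 fell (13.6% against 6.54%), with a median of -0.21. Syvn1, a ubiquitin ligase of protein disposal from that compartment, rose by 0.90 ± 0.15 (SE, adjusted p = 0.000617), and Edem1, which marks misfolded glycoproteins for disposal, by 0.61 ± 0.16 (SE, adjusted p = 0.0183). The chaperone Hspa5 (BiP) read 12.83, 12.66, 12.46, 12.75 and 12.28 in the bigenic mice and 13.40, 13.03, 13.11 and 12.54 in the monogenic mice, with overlap, and changed by -0.44 ± 0.13 (SE, adjusted p = 0.0249). Hspa5 lost this call when each of dNLS bigenic 3 and 5 and dNLS monogenic 1 and 3 was left out (adjusted p = 0.0625 to 0.11). Pdia6, a protein disulfide isomerase, fell with a change of -0.68 ± 0.17 (SE, adjusted p = 0.00925), and Atf6, a sensor of the response, with -0.30 ± 0.09 (SE, adjusted p = 0.0273). The 3 became 1 without dNLS bigenic 3 or 5 or monogenic 1 or 3, and the 2 became 1 without monogenic 2. Atf6 lost its call without any 1 of dNLS bigenic 2, 3, 4 and 5 and dNLS monogenic 1, 3 and 4 (adjusted p = 0.05 to 0.088) and Edem1 without dNLS monogenic 2 (adjusted p = 0.0764). Of 19 heat shock genes 0 rose and 2 fell (10.5% against 6.54% of all genes). These were Dnaja1 (-0.50 ± 0.06 SE, adjusted p = 1.72e-05) and Hspa4 (-0.28 ± 0.08 SE, adjusted p = 0.0213), both cytosolic chaperones of the Hsp70 system. The list did not hold Hspb3, which was among the largest increases, or Dnajb6, described below. Hspa4 lost its call without any 1 of dNLS bigenic 1 and 5 and dNLS monogenic 1, 3 and 4 (adjusted p = 0.0572 to 0.0698), and with the mean of its probe sets it turned to 0.021.

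Of 22 p53 targets and apoptosis genes, 3 rose (13.6% against 7.76% of all genes) and 2 fell (9.09% against 6.54%), with a median of 0.00. Aen, a nuclease induced by p53, was a clear case, at 12.03, 11.89, 12.03, 11.80 and 11.83 in the bigenic mice and 10.42, 10.56, 10.55 and 10.73 in the monogenic mice (change 1.36 ± 0.20 SE, adjusted p = 0.00018). Pmaip1 was described above. Phlda3, an inhibitor of Akt, rose by 0.89 ± 0.26 (SE, adjusted p = 0.0294), and Phlda3 lost this call when each of dNLS bigenic 1 and 5 and dNLS monogenic 1, 3 and 4 was left out (adjusted p = 0.0565 to 0.0978). Perp, a membrane protein of p53-dependent death, fell with a change of -0.80 ± 0.16 (SE, adjusted p = 0.0025), and Bcl2l1, which encodes the survival protein Bcl-xL, with -0.47 ± 0.15 (SE, adjusted p = 0.0495). Bcl2l1 lost its call without any 1 of dNLS bigenic 1, 2, 3 and 4, dNLS monogenic 1, 2, 3 and 4, nontransgenic 1, 2, 3, 5, 7 and 8 and WT bigenic 1, 2, 3 and 4 (adjusted p = 0.051 to 0.163), and in the list 5 rose without nontransgenic 6. Among 18 genes of the neuronal injury response 4 rose (Tnfrsf12a, Atf3, Klf6 and Npy) and 1 fell (22.2% and 5.56%, against 7.76% and 6.54% of all genes). The 1 was Jun, a transcription factor usually induced by axon injury, at 10.21, 10.55, 10.34, 10.39 and 10.34 in the bigenic mice and 11.15, 11.06, 11.11 and 11.22 in the monogenic mice (change -0.77 ± 0.10 SE, adjusted p = 4.14e-05). Its groups were 0.5 apart. Klf6 overlapped through the female bigenic mouse, at 12.95, 13.02, 13.03, 12.96 and 12.60 in the bigenic mice and 12.45, 12.46, 12.62 and 12.55 in the monogenic mice (change 0.39 ± 0.10 SE, adjusted p = 0.0129), and did not pass after centring of the arrays (adjusted p = 0.0879).

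Genes of protein synthesis were shifted upward by small amounts. Of 49 cytosolic ribosomal protein genes, 18 rose and 0 fell (36.7% higher against 7.76% of all genes), with a median of 0.17. Of the 49, 24 lay apart in the higher direction (10.3% of all genes did). The number depended on scaling: 8 rose after each array was centred on its median, and 14 to 26 with 1 array left out. Rpl14, of the large subunit, had the largest change, at 8.80, 8.90, 8.99, 9.23 and 8.76 in the bigenic mice and 7.87, 7.79, 7.93 and 7.65 in the monogenic mice (1.12 ± 0.09 SE, adjusted p = 4.44e-07). Rpsa, of the small subunit, was among the brightest genes, at 14.07, 14.08, 14.12, 14.02 and 14.20 in the bigenic mice and 13.63, 13.68, 13.57 and 13.53 in the monogenic mice (0.50 ± 0.05 SE, adjusted p = 1.65e-06). Its groups were narrow and 0.3 apart. Rplp0, of the ribosomal stalk, rose by 0.62 ± 0.10 (SE, adjusted p = 0.000285). Of 73 mitochondrial ribosomal protein genes 20 rose and 0 fell (27.4% higher against 7.76% of all genes), with a median of 0.17, and 21 rose after centring. Mrpl54 (0.97 ± 0.18 SE, adjusted p = 0.000987), Mrpl22 (0.76 ± 0.08 SE, adjusted p = 9.7e-06), Mrps18a (0.74 ± 0.20 SE, adjusted p = 0.0189) and Mrpl9 (0.73 ± 0.09 SE, adjusted p = 2.05e-05) changed most, and in none of these 4 did the groups overlap. Mrps18a lost its call without dNLS monogenic 2 (adjusted p = 0.0746). Mrpl22 read 11.16, 11.11, 11.14, 11.36 and 11.28 in the bigenic mice and 10.62, 10.39, 10.31 and 10.48 in the monogenic mice.

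Translation factors gave 8 increases and 2 decreases among 52 genes (15.4% and 3.85%, against 7.76% and 6.54% of all genes). Their median was 0.12, and without nontransgenic 6 there were 15 increases. Eif4e2, a cap-binding protein that represses translation, rose by 0.89 ± 0.19 (SE, adjusted p = 0.00353). Eif5b, which joins the ribosomal subunits, read 10.68, 10.67, 10.65, 10.59 and 10.97 in the bigenic mice and 10.12, 10.26, 10.01 and 10.02 in the monogenic mice (change 0.61 ± 0.09 SE, adjusted p = 0.000137). Eif2b1, a subunit of the exchange factor that the stress response inhibits, rose by 0.46 ± 0.12 (SE, adjusted p = 0.0178) with overlapping groups. Eif2b1 lost its call without any 1 of dNLS bigenic 2 and 5 and dNLS monogenic 3 and 4 (adjusted p = 0.0501 to 0.0582). The proteasome list gave 6 increases and 3 decreases among 38 genes (15.8% and 7.89%, against 7.76% and 6.54% of all genes). When 1 array was left out there were 6 to 10 increases (10 without nontransgenic 6) and 1 to 3 decreases. The decreases numbered 1 without dNLS bigenic 2 or 3, monogenic 2, 3 or 4, nontransgenic 1 or 4 or WT bigenic 2 or 3. Psmb2 (0.61 ± 0.13 SE, adjusted p = 0.00265), Psmd12 (0.54 ± 0.09 SE, adjusted p = 0.000617) and Psmd3 (0.50 ± 0.12 SE, adjusted p = 0.00776) led the increases, and Psmb10, a subunit of the immunoproteasome, fell with -0.37 ± 0.07 (SE, adjusted p = 0.00227).

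Oxidative phosphorylation genes went both ways, with 14 increases and 7 decreases among 79 (17.7% and 8.86%, against 7.76% and 6.54% of all genes). The median was 0.03, and -0.01 after centring, where 10 rose. Atp5g1, of the proton channel of ATP synthase, rose by 0.51 ± 0.10 (SE, adjusted p = 0.00258), and Ndufa8, of complex I, by 0.43 ± 0.06 (SE, adjusted p = 8.75e-05). Atp5l, also of ATP synthase, fell from 11.69, 11.73, 11.70 and 11.66 to 11.22, 11.32, 11.28, 11.27 and 11.39 (-0.40 ± 0.06 SE, adjusted p = 9.05e-05). Members of 1 complex thus changed in opposite directions.

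Lysosomal genes gave 5 increases and 0 decreases among 27 (18.5% higher against 7.76% of all genes). The median was 0.13, and there were 4 to 7 increases with 1 array left out. Besides Gla these were Neu1, a sialidase, at 9.67, 9.58, 9.61, 9.29 and 9.38 in the bigenic mice and 8.49, 8.50, 8.29 and 8.61 in the monogenic mice (1.03 ± 0.13 SE, adjusted p = 2.41e-05), Gaa, acid alpha-glucosidase (0.67 ± 0.17 SE, adjusted p = 0.00937), Ctsf (0.35 ± 0.05 SE, adjusted p = 0.000196) and the protease gene Ctsd (0.59 ± 0.17 SE, adjusted p = 0.0286). Neu1 did not overlap. Ctsd lost this call when each of dNLS bigenic 1, 2, 3 and 5 and dNLS monogenic 1, 2, 3 and 4 was left out (adjusted p = 0.0514 to 0.0693). Cholesterol synthesis genes gave 0 increases and 5 decreases among 19 (26.3% against 6.54%; median -0.24). Fdft1, squalene synthase, read 10.33, 10.50, 10.43, 10.37 and 10.68 in the bigenic mice and 11.26, 11.72, 11.35 and 11.34 in the monogenic mice, a change of -0.96 ± 0.13 (SE, adjusted p = 9.06e-05). Sqle, squalene epoxidase, changed by -0.70 ± 0.16 (SE, adjusted p = 0.0065), Tm7sf2, a sterol reductase, by -0.89 ± 0.19 (SE, adjusted p = 0.00343), Idi1 by -0.39 ± 0.12 (SE, adjusted p = 0.0387) and Hmgcs1 by -0.24 ± 0.07 (SE, adjusted p = 0.0241). The 5 became 3 without dNLS bigenic 5, monogenic 2 or monogenic 4. Idi1 lost its call without any 1 of dNLS bigenic 2, 3, 4 and 5 and dNLS monogenic 1, 2, 3 and 4 (adjusted p = 0.0596 to 0.106) and Hmgcs1 without any 1 of dNLS bigenic 1 and 5 and dNLS monogenic 2 and 4 (adjusted p = 0.0507 to 0.0847).

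**Figure D4:**
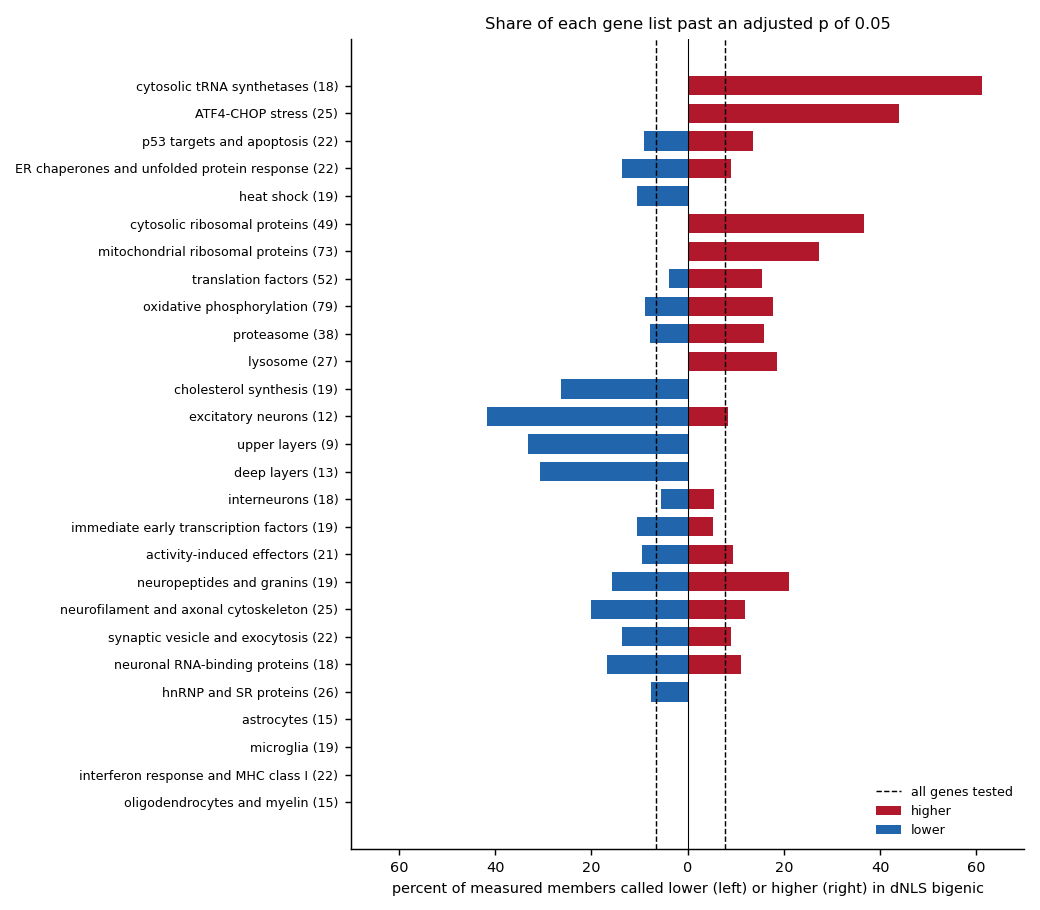
Share of the measured members of 27 gene lists (number in parentheses) that were called higher, to the right, or lower, to the left, in bigenic mice at an adjusted p under 0.05. Dashed lines mark the shares over all genes, 7.76% higher and 6.54% lower; tRNA synthetases (61.1%), ATF4 and CHOP genes (44%) and ribosomal proteins (36.7%) had the longest bars to the right, and excitatory neuron genes (41.7%), upper layer genes (33.3%) and deep layer genes (30.8%) the longest to the left.

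Genes that mark excitatory neurons, the cells in which the driver is generally described as active, were lower in part. Of 12 measured, 5 fell and 1 rose (41.7% and 8.33%, against 6.54% and 7.76% of all genes), with a median of -0.32. Per array the mean log2 level over the 12 was 10.50 to 10.80 on the bigenic and 10.96 to 11.27 on the monogenic arrays. Slc17a6, the vesicular glutamate transporter VGLUT2, read 8.93, 9.23, 9.11, 9.46 and 9.33 in the bigenic mice and 10.44, 10.77, 10.39 and 10.57 in the monogenic mice (change -1.33 ± 0.15 SE, adjusted p = 1.21e-05). Neurod1, a transcription factor of neuronal differentiation, read 8.26, 7.90, 8.52, 8.16 and 8.45 in the bigenic mice and 9.21, 9.48, 9.18 and 9.58 in the monogenic mice (change -1.10 ± 0.12 SE, adjusted p = 1.09e-05). Itpka, a kinase of dendritic spines, changed by -0.87 ± 0.11 (SE, adjusted p = 5.34e-05). These 3 did not overlap. Nptx1 (-0.43 ± 0.08 SE, adjusted p = 0.000899) and Mef2c (-0.15 ± 0.05 SE, adjusted p = 0.0377) also fell, and Rtn4r, the Nogo receptor, rose by 0.65 ± 0.15 (SE, adjusted p = 0.00533). Mef2c lost its call without any 1 of dNLS bigenic 2, 4 and 5 and dNLS monogenic 2 and 4 (adjusted p = 0.0648 to 0.168). Where each gene was read by the mean of its probe sets, 3 of the 12 fell, Mef2c turned to 0.017 and Nptx1 did not pass (adjusted p = 0.0701). Rtn4r did not pass in the males alone (adjusted p = 0.0883).

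Layer markers gave decreases in both sets, 3 of 9 upper layer genes (33.3%) and 4 of 13 deep layer genes (30.8%), with 0 increases in either. Of all genes 6.54% fell and 7.76% rose. Calb1, the calcium buffer calbindin and a marker of upper layers, was very even within groups, at 11.87, 11.96, 11.97, 12.001 and 12.01 in the bigenic mice and 12.78, 12.83, 12.84 and 12.88 in the monogenic mice (-0.87 ± 0.06 SE, adjusted p = 1.65e-07). Cartpt, a neuropeptide precursor, read 6.33, 6.55, 6.52, 6.84 and 6.31 in the bigenic mice and 8.70, 8.07, 8.57 and 7.73 in the monogenic mice (-1.76 ± 0.24 SE, adjusted p = 8.57e-05). Cux1, an upper layer transcription factor, changed by -0.59 ± 0.16 (SE, adjusted p = 0.0204), and Cux1 lost this call when each of dNLS bigenic 1 and 5 and dNLS monogenic 2 and 4 was left out (adjusted p = 0.0548 to 0.085). Rprm, a marker of layer 6 that is also a p53-induced cell cycle gene, fell from 11.87, 11.998, 11.89 and 11.93 to 9.73, 10.26, 9.92, 10.37 and 10.71 (-1.71 ± 0.13 SE, adjusted p = 2.33e-07). Crym, a thyroid hormone binding protein of deep layers, read 9.38, 9.82, 9.84, 10.11 and 9.74 in the bigenic mice and 11.38, 10.60, 11.17 and 10.83 in the monogenic mice (-1.21 ± 0.17 SE, adjusted p = 0.0001). Tle4 (-0.30 ± 0.08 SE, adjusted p = 0.0096) and Pcp4 (-0.24 ± 0.06 SE, adjusted p = 0.00622) changed less. The decreases in deep layers numbered 4 whichever array was left out.

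Some of the same genes mark neighbouring regions. Of 8 hippocampus genes 3 fell (37.5% against 6.54% of all genes), Wfs1, Neurod1 and Calb1. The list means were 6.14 to 6.32 on the bigenic and 6.65 to 6.71 on the monogenic arrays. Wfs1, the endoplasmic reticulum protein wolframin, which is also found in cortical neurons, read 9.70, 9.92, 9.64, 10.34 and 10.48 in the bigenic mice and 11.65, 11.53, 11.83 and 11.70 in the monogenic mice (-1.65 ± 0.14 SE, adjusted p = 6.44e-07). Of 8 thalamus genes Ramp3, a receptor-modifying protein (-1.54 ± 0.22 SE, adjusted p = 0.000106), and Slc17a6 fell and Rora, a nuclear receptor (0.85 ± 0.14 SE, adjusted p = 0.000412), rose. These were 25% lower and 12.5% higher, against 6.54% and 7.76% of all genes. The thalamus list means were 5.26 to 5.96 on the bigenic and 5.83 to 6.11 on the monogenic arrays. Striatum genes were negative in 8 of 8, with a median of -0.93, and 1 passed as lower (12.5% against 6.54% of all genes). The list mean was 7.34 to 9.91 on the bigenic and 7.85 to 10.49 on the monogenic arrays, a wide spread with overlap. That 1 was Penk, proenkephalin, at 7.79, 9.66, 9.48, 11.30 and 11.53 in the bigenic mice and 12.51, 11.75, 12.85 and 11.38 in the monogenic mice (-2.14 ± 0.58 SE, adjusted p = 0.0183). Penk lost this call when each of dNLS monogenic 1 and 3 was left out (adjusted p = 0.0626 to 0.0764), nor did it pass on the 9 dNLS arrays alone (adjusted p = 0.135) or in the males (adjusted p = 0.0764). Penk and Nts were lowest in the bigenic mice whose striatum list was lowest, replicates 1 and 3. Penk is 1 of the 8 genes of that list and enters its mean, so its match was partly fixed in advance. The part of striatal RNA in Penk and Nts was not tested. Without monogenic 4, whose striatum list mean was the lowest of its group at 7.85, 3 striatum genes passed as lower.

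Of 18 interneuron markers 1 rose and 1 fell (5.56% each, against 7.76% and 6.54% of all genes), with a median of -0.24 and 14 of 18 below 0. Npy, neuropeptide Y, rose by 0.34 ± 0.07 (SE, adjusted p = 0.00192), but did not pass in the males alone (adjusted p = 0.0544). Reln, reelin, fell with overlap (-0.45 ± 0.12 SE, adjusted p = 0.0194), and Reln lost this call when each of dNLS bigenic 1 and 3 and dNLS monogenic 2 and 3 was left out (adjusted p = 0.05 to 0.0665). The interneuron genes that fell numbered 2 without bigenic 5 or nontransgenic 6 and 3 without monogenic 4. Over the alternatives other than leaving out 1 array they numbered 1 to 10. Among 19 neuropeptide and granin genes 4 rose (Chga, Cort, Npy and Pcsk1n) and 3 fell (Nts, Penk and Cartpt), or 21.1% and 15.8%, against 7.76% and 6.54% of all genes. The 4 became 2 without dNLS bigenic 2, 3 or 4 or monogenic 1 or 3, and the 3 became 1 without monogenic 1 or 3 and 5 without nontransgenic 6. Cort lost its call without any 1 of dNLS bigenic 2, 3 and 4 and dNLS monogenic 1, 2 and 3 (adjusted p = 0.0719 to 0.144) and Pcsk1n without any 1 of dNLS bigenic 2, 3, 4 and 5, dNLS monogenic 1, 3 and 4, nontransgenic 1, 2, 3, 4 and 5 and WT bigenic 1, 2, 3 and 4 (adjusted p = 0.053 to 0.144). Chga, chromogranin A of dense-core vesicles, read 11.58, 11.79, 11.67, 11.58 and 12.14 in the bigenic mice and 11.04, 10.99, 10.71 and 11.04 in the monogenic mice (0.82 ± 0.13 SE, adjusted p = 0.000393).

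Of 19 immediate early transcription factors, which neuronal activity induces, Egr2 and Jun fell and Klf6 rose (15.8% called against 14.3% of all genes), and 5 of the 19 lay at the lowest value. Of 21 activity-induced effectors 2 rose and 2 fell (19% called). Gadd45b, a stress-inducible regulator of DNA demethylation, rose by 1.64 ± 0.39 (SE, adjusted p = 0.00696) from 7.94, 6.32, 7.69 and 7.43 to 9.39, 8.93, 8.97, 9.11 and 8.45, and Rgs2, a regulator of G protein signalling, by 0.33 ± 0.09 (SE, adjusted p = 0.0152). Its relative Rgs4 changed by -0.40 ± 0.08 (SE, adjusted p = 0.00167), and Ptgs2, cyclooxygenase 2, by -0.81 ± 0.22 (SE, adjusted p = 0.0178) with overlap. Ptgs2 lost this call without dNLS monogenic 1 (adjusted p = 0.0664). Rgs2 lost its call without dNLS monogenic 4 (adjusted p = 0.0774). With the mean of probe sets Rgs4 (adjusted p = 0.512) and Ptgs2 (adjusted p = 0.59) did not pass. Without nontransgenic 6, 4 effectors fell, and without monogenic 4, 1 rose.

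In the neurofilament and axonal cytoskeleton list 3 of 25 rose and 5 fell (12% and 20%, against 7.76% and 6.54% of all genes), with a median of 0.03. Kif5a, a kinesin heavy chain of axonal transport that is also a gene of amyotrophic lateral sclerosis, read 9.73, 9.93, 9.90, 9.77 and 10.31 in the bigenic mice and 7.87, 7.78, 8.05 and 8.70 in the monogenic mice. The change was 1.84 ± 0.27 (SE, adjusted p = 0.000146), and the groups were 1 log2 unit apart. Ina, the intermediate filament protein internexin, rose by 0.46 ± 0.14 (SE, adjusted p = 0.0298). Nefl, the light neurofilament chain, read 12.40, 12.48, 12.42, 12.37 and 12.31 in the bigenic mice and 12.99, 12.62, 12.89 and 12.94 in the monogenic mice and fell (-0.46 ± 0.08 SE, adjusted p = 0.00102). Internexin and the light chain, which assemble together, thus changed in opposite directions. Klc1, a kinesin light chain, changed by -0.22 ± 0.05 (SE, adjusted p = 0.00721). The others were tubulins, Tubb3 at 0.20 and Tuba1a, Tubb2a and Tuba4a at -0.17, -0.16 and -0.13. Ina lost its call without any 1 of dNLS bigenic 1, 2, 3 and 5 and dNLS monogenic 1, 2, 3 and 4 (adjusted p = 0.0513 to 0.0839). After centring 1 rose and 3 fell, and without nontransgenic 6 there were 6 increases.

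Synaptic genes also changed in both directions. Of 22 genes of synaptic vesicles and exocytosis 2 rose and 3 fell (9.09% and 13.6%, against 7.76% and 6.54% of all genes). Bsn, the active zone scaffold bassoon, rose by 0.86 ± 0.18 (SE, adjusted p = 0.00292), and Napa, alpha-SNAP, which recycles the fusion machinery, read 12.36, 12.18, 12.23, 12.13 and 12.04 in the bigenic mice and 11.50, 11.79, 11.57 and 11.61 in the monogenic mice (0.57 ± 0.07 SE, adjusted p = 3.17e-05). Napb, its close relative, changed by -0.22 ± 0.03 (SE, adjusted p = 5.85e-05), the fusion protein gene Stx1a by -0.48 ± 0.11 (SE, adjusted p = 0.00705) and Unc13a, a vesicle priming factor, by -0.46 ± 0.12 (SE, adjusted p = 0.0125). Unc13a lost its call without dNLS monogenic 4 (adjusted p = 0.0575), and with the mean of probe sets Napb did not pass (adjusted p = 1). Without nontransgenic 6, 6 of these genes fell. Of 23 voltage-gated channel genes 2 rose and 3 fell (8.7% and 13%, against the same shares of all genes). Kcnab2, a potassium channel beta subunit, rose by 0.82 ± 0.16 (SE, adjusted p = 0.00177). Scn3b, a sodium channel beta subunit, read 9.59, 10.23, 10.23, 10.29 and 10.28 in the bigenic mice and 10.76, 10.83, 10.76 and 10.77 in the monogenic mice (-0.65 ± 0.11 SE, adjusted p = 0.000597), and Kcnd2, an A-type potassium channel, changed by -0.59 ± 0.13 (SE, adjusted p = 0.00434) and Cacna2d3 by -0.49 ± 0.15 (SE, adjusted p = 0.0348). Kcna2, which also rose (0.56 ± 0.14 SE, adjusted p = 0.0126), lay within 1.2 of the lowest value on every array, and did not pass on the 9 dNLS arrays alone (adjusted p = 0.127). Cacna2d3 lost its call without any 1 of dNLS bigenic 1, 2, 3 and 4 and dNLS monogenic 1, 3 and 4 (adjusted p = 0.0532 to 0.097). Of 17 glutamate and GABA receptor genes 0 rose and 3 fell (17.6%, against 6.54% of all genes). These were Gria3 (-1.17 ± 0.31 SE, adjusted p = 0.0157), Grik1 (-0.66 ± 0.13 SE, adjusted p = 0.0022) and Gabrg1 (-0.55 ± 0.15 SE, adjusted p = 0.0207). Gria3 lost this call when each of dNLS monogenic 1 and 4 was left out (adjusted p = 0.0575 to 0.0581). Gabrg1 lost its call without any 1 of dNLS bigenic 1, 2 and 5 and dNLS monogenic 3 and 4 (adjusted p = 0.0546 to 0.0776). The 3 became 1 without monogenic 4, while 1 gene rose without bigenic 1 or 4.

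RNA-binding proteins of neurons gave 2 increases and 3 decreases among 18 (11.1% and 16.7%, against 7.76% and 6.54% of all genes). Nova1, a splicing regulator of inhibitory synapse transcripts, had the largest change, at 6.89, 6.48, 6.55, 6.61 and 7.51 in the bigenic mice and 8.53, 8.86, 8.78 and 8.78 in the monogenic mice (-1.93 ± 0.31 SE, adjusted p = 0.000298). Its highest bigenic value lay 1 unit below the lowest monogenic value. Elavl4, HuD, read 11.53, 11.62, 11.53, 11.53 and 11.28 in the bigenic mice and 12.04, 12.01, 12.06 and 12.15 in the monogenic mice (-0.57 ± 0.09 SE, adjusted p = 0.000228), and Rbfox1, a splicing regulator, changed by -0.48 ± 0.13 (SE, adjusted p = 0.022). Syncrip, which binds messenger RNAs in transport granules, rose by 0.57 ± 0.11 (SE, adjusted p = 0.00212), and Elavl3 by 0.20 ± 0.06 (SE, adjusted p = 0.0464). Elavl3 lost its call without any 1 of dNLS bigenic 1, 2, 3 and 4, dNLS monogenic 1, 3 and 4, nontransgenic 1, 2, 4 and 5 and WT bigenic 1 and 4 (adjusted p = 0.0509 to 0.148) and Rbfox1 without any 1 of dNLS bigenic 4 and dNLS monogenic 1 and 3 (adjusted p = 0.0504 to 0.079). With the mean of probe sets, Elavl4 (adjusted p = 0.123) and Syncrip (adjusted p = 0.161) did not pass. Of 26 hnRNP and SR proteins 0 rose and 2 fell (0% and 7.69%, against 7.76% and 6.54% of all genes). The median change was -0.14, and 17 of the 26 changes lay below 0. The 2 were Hnrnpd (-0.35 ± 0.11 SE, adjusted p = 0.0486) and Hnrnph2 (-0.25 ± 0.08 SE, adjusted p = 0.0379), both near the threshold. Hnrnpd lost its call without any 1 of dNLS bigenic 1, 2, 3, 4 and 5, dNLS monogenic 2, 3 and 4, nontransgenic 2, 3 and 7 and WT bigenic 1, 2, 3 and 4 (adjusted p = 0.0549 to 0.164) and Hnrnph2 without any 1 of dNLS bigenic 2, 3 and 5 and dNLS monogenic 2, 3 and 4 (adjusted p = 0.0601 to 0.149). In the list 4 fell without nontransgenic 6, and 1 to 13 fell over the alternatives other than leaving out 1 array.

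Of 26 genes of amyotrophic lateral sclerosis and frontotemporal dementia 3 rose and 3 fell (11.5% each, against 7.76% and 6.54% of all genes). Besides Kif5a, C9orf72, whose repeat expansion causes both diseases, rose at 11.14, 11.05, 11.23, 11.24 and 11.08 in the bigenic mice and 10.65, 10.28, 10.62 and 10.63 in the monogenic mice (0.61 ± 0.14 SE, adjusted p = 0.00646), and Chchd10, of mitochondria, by 0.13 ± 0.03 (SE, adjusted p = 0.00339). Chchd10 did not pass after centring of the arrays (adjusted p = 0.387). Ubqln2, a shuttle factor to the proteasome, read 12.73, 12.61, 12.60, 12.68 and 12.21 in the bigenic mice and 12.90, 13.12, 13.07 and 13.10 in the monogenic mice (-0.49 ± 0.09 SE, adjusted p = 0.00073). Its 1 low bigenic value was that of the female. Unc13a and Tuba4a, named above, were the other two that fell, and 5 fell without nontransgenic 6. Of 16 neuronal genes known to bind TDP-43, Kcnd2 and Sort1 fell and none rose (12.5% and 0%, against 6.54% and 7.76% of all genes). Sort1, the sorting receptor sortilin, changed by -0.20 ± 0.06 (SE, adjusted p = 0.031), but by 0.048 with the mean of its probe sets, and Sort1 lost this call when each of dNLS bigenic 1, 3 and 4 and dNLS monogenic 1, 2 and 4 was left out (adjusted p = 0.0509 to 0.106).

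The gene of mouse TDP-43, Tardbp, is read by 4 probe sets, which did not move together. Probe set 1423723_s_at read 9.56, 9.53, 9.62, 9.56 and 9.38 in the bigenic mice and 10.89, 10.45, 10.69 and 10.49 in the monogenic mice. The groups lay 0.8 apart, and the change was -1.10 ± 0.10 (SE, adjusted p = 8.7e-07) among all 20380 probe sets, of which 2452 (12%) were called. Probe set 1434419_s_at went the other way, at 6.61, 6.06, 6.58, 6.42 and 7.10 in the bigenic mice and 5.83, 5.26, 5.94 and 5.94 in the monogenic mice (0.83 ± 0.21 SE, adjusted p = 0.0149). Probe sets 1428467_at (-0.17 ± 0.08 SE, adjusted p = 0.184), the brightest, and 1455655_a_at (-0.65 ± 0.29 SE, adjusted p = 0.199) did not pass. The brightest represents the gene in the counts above, in which Tardbp was therefore not called. Where in the transcript each probe set lies was not analysed here, and whether any of them also reads the human transgene was not tested.

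Opposite calls within a gene were rare. Of 4956 genes with more than 1 probe set, 341 had 2 or more probe sets called and 10 had both an increase and a decrease. Dnajb6, a co-chaperone that suppresses protein aggregation, was such a gene, chosen after its values were seen. Its dim probe set 1429777_at read 5.43, 5.15, 6.09, 3.94 and 4.61 in the bigenic mice and 2.41, 2.05, 2.27 and 2.27 in the monogenic mice (2.79 ± 0.33 SE, adjusted p = 2.25e-05), and 1434035_at read 10.998, 10.86, 11.02, 10.75 and 10.71 in the bigenic mice and 10.10, 9.97, 10.04 and 9.99 in the monogenic mice (0.85 ± 0.11 SE, adjusted p = 5.41e-05). The 2 others fell, 1448234_at, the brightest, with -0.43 ± 0.07 (SE, adjusted p = 0.000522) and 1429776_a_at with -0.91 ± 0.24 (SE, adjusted p = 0.0167). Tpm3, a tropomyosin with many splice forms, was also chosen after its values were seen. Probe set 1449996_a_at read 6.45, 6.65, 6.55, 5.76 and 6.53 in the bigenic mice and 2.91, 2.91, 3.05 and 2.95 in the monogenic mice. This change, 3.44 ± 0.18 (SE, adjusted p = 5e-09), was larger than that of any gene called by its brightest probe set in the higher direction. The brightest probe set of Tpm3, 1427260_a_at, read 12.02, 12.04, 11.996, 12.001 and 11.85 in the bigenic mice and 12.08, 12.01, 12.07 and 12.06 in the monogenic mice (-0.08 ± 0.14 SE, adjusted p = 1), with no visible difference. Of the remaining 3, 1436958_x_at (-0.14 ± 0.04 SE, adjusted p = 0.0406) and 1449997_at (0.10 ± 0.03 SE, adjusted p = 0.0328) passed with small changes and 1427567_a_at (0.26 ± 0.80 SE, adjusted p = 1) did not.

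**Figure D5:**
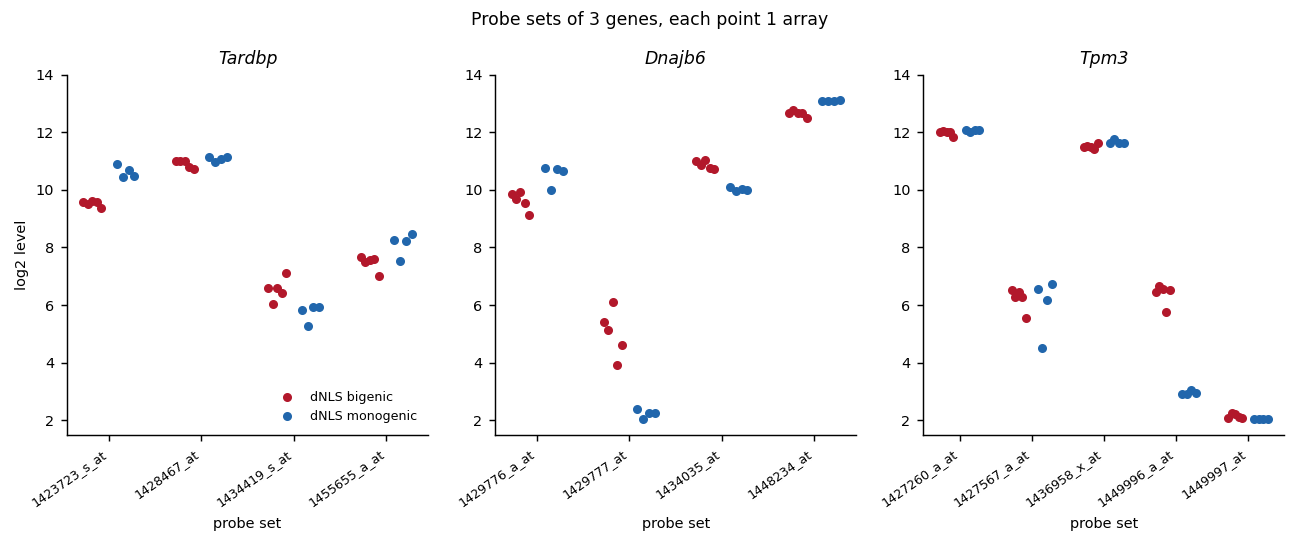
Log2 level of every probe set of Tardbp, Dnajb6 and Tpm3, with 1 point for each array of dNLS bigenic (red) and dNLS monogenic mice (blue). Within each gene some probe sets lie higher in bigenic mice and others lower; the separation is widest for 1449996_a_at of Tpm3, at 5.76 to 6.65 against 2.91 to 3.05.

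Prnp, the prion protein, is among the brightest genes of the cortex. Probe set 1448233_at read 13.96, 13.93, 13.91, 13.95 and 13.67 in the bigenic mice and 13.49, 13.51, 13.53 and 13.55 in the monogenic mice, a small and even change of 0.36 ± 0.04 (SE, adjusted p = 1.26e-05) over genes. Probe set 1416130_at read 12.33, 12.63, 12.60, 12.48 and 12.56 in the bigenic mice and 11.38, 10.79, 11.29 and 11.45 in the monogenic mice (1.29 ± 0.39 SE, adjusted p = 0.04). In both, every bigenic mouse lay above every monogenic mouse. Camk2a, whose promoter is generally described as that of the driver, read 8.78, 9.01, 8.997, 9.81 and 7.74 in the bigenic mice and 10.21, 6.57, 10.06 and 10.56 in the monogenic mice. The change of -0.46 ± 1.40 (SE, adjusted p = 1) was far smaller than the spread, which in monogenic mice came from replicate 2, the array with the largest 3' bias, and turned to 0.20 in the males alone. Its probe set could not show whether the driver changed the gene of its own promoter.

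The site at which the commonly used Camk2a-tTA transgene inserted is generally described, outside the data used here, as lying by Vipr2, Ncapg2 and Ptprn2. Ncapg2, a condensin subunit, read 6.83, 6.65, 6.98, 4.38 and 4.44 in the bigenic mice and 6.26, 7.13, 6.73 and 6.66 in the monogenic mice. Bigenic replicates 4 and 5 were low and the other bigenic mice lay with the monogenic ones, so the change of -0.85 ± 0.63 (SE, adjusted p = 0.532) did not pass. In WT bigenic mice it was -3.53 (adjusted p = 0.0133) against nontransgenic mice. Ptprn2, a phosphatase-like protein of secretory vesicles, read 2.24, 2.19, 2.18, 2.17 and 2.20 in the bigenic mice and 2.99, 2.24, 3.00 and 2.98 in the monogenic mice (-0.58 ± 0.27 SE, adjusted p = 0.198), and Vipr2, a receptor for the peptide VIP, was at the lowest value on all arrays. Neighbours in the RefSeq order were counted as the 20 measured genes before Ncapg2 and the 4 after it. Of these 24, 4 were called in the dNLS comparison, against 14.3% of all genes. In the WT comparison 0 were called, against 2.23% of all genes. Crip2, Nudt14 and Clba1, at positions -10, -13 and -17 from Ncapg2 in measured genes, were lower, and Zfp386, at position -2, was higher. Clba1 lost its call without any 1 of dNLS bigenic 1, 2 and 3, dNLS monogenic 1, 2, 3 and 4, nontransgenic 8 and WT bigenic 1 and 3 (adjusted p = 0.0505 to 0.106).

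Markers of other cell types gave few calls. For astrocytes (15 genes), microglia (19), interferon response and MHC class I (22, of which 7 lay at the lowest value), oligodendrocytes and myelin (15), oligodendrocyte precursors (7), choroid plexus (10) and blood (7) the count was 0 in both directions by limma. At an unadjusted p under 0.05 lay 4 lower astrocyte, 3 lower microglia, 1 lower oligodendrocyte and 1 lower precursor genes, and 0 others of these lists. In microglia 17 of 19 changes lay below 0, with a median of -0.36. Csf1r, the receptor on which microglia depend, averaged 11.86 in bigenic and 12.14 in monogenic mice (change -0.28 ± 0.24 SE, adjusted p = 0.633). The list mean was 7.51 to 8.36 on the bigenic and 8.22 to 8.40 on the monogenic arrays, lowest on dNLS bigenic 1. Microglia genes passed as lower in some alternatives, 4 without WT bigenic 3, 1 or 2 without dNLS bigenic 4 or 5, nontransgenic 4, 5 or 6 or WT bigenic 1, 3 after centring of the arrays and 10 with array weights. Astrocyte list means were 11.51 to 11.73 on the bigenic and 11.71 to 11.82 on the monogenic arrays, with 14 of 15 changes below 0. Astrocyte genes passed as lower in some alternatives, 2 on the 9 dNLS arrays alone and 1 after centring. The count was 0 to 2 with 1 array left out and 0 to 4 over the alternatives of other kinds. Group values lay apart in the lower direction for 3 of 15 astrocyte and 4 of 19 microglia genes, against 8.33% of all genes. The reactive astrocyte list (16 genes, 6 at the lowest value) had 1 increase (6.25% against 7.76% of all genes). This was Serpina3n, a protease inhibitor induced in gliosis, at 4.57, 5.53, 5.61, 5.26 and 5.27 in the bigenic mice and 3.29, 3.34, 2.93 and 3.21 in the monogenic mice (2.06 ± 0.44 SE, adjusted p = 0.00353). The groups did not overlap.

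Of 22 genes of activated microglia 1 rose and 1 fell (4.55% each, against 7.76% and 6.54% of all genes). Ctsd rose and Lpl, lipoprotein lipase, fell with overlap (-1.17 ± 0.33 SE, adjusted p = 0.0247). Lpl lost this call when each of dNLS bigenic 1 and dNLS monogenic 1, 2 and 3 was left out (adjusted p = 0.0637 to 0.0963). Without nontransgenic 6 or WT bigenic 3, 2 of the 22 rose. In endothelium and mural cells (17 genes) Slco1c1, a thyroid hormone transporter of brain vessels, fell (-0.37 ± 0.12 SE, adjusted p = 0.0456). That was 5.88% of the list, against 6.54% of all genes. Slco1c1 lost its call without any 1 of dNLS bigenic 1, 2, 3 and 4, dNLS monogenic 1, 2, 3 and 4, nontransgenic 1, 3, 5 and 8 and WT bigenic 1, 2, 3 and 4 (adjusted p = 0.0508 to 0.14). In meninges and fibroblasts 12 of 12 changes lay below 0, with a median of -0.30, and 1 passed as lower (8.33% against 6.54% of all genes). Igfbp2, a binding protein of insulin-like growth factors, fell with overlap (-0.91 ± 0.28 SE, adjusted p = 0.0343). Igfbp2 lost this call when each of dNLS bigenic 1, 2 and 3 and dNLS monogenic 1, 2 and 4 was left out (adjusted p = 0.0517 to 0.145). Of 46 collagen and laminin genes 2 rose and 2 fell (4.35% each, against 7.76% and 6.54% of all genes). The linked basement membrane genes Col4a2 (0.94 ± 0.21 SE, adjusted p = 0.00448) and Col4a1 (0.79 ± 0.20 SE, adjusted p = 0.0101) rose. Col6a1 (-1.48 ± 0.27 SE, adjusted p = 0.00102) and Col5a1 (-2.15 ± 0.52 SE, adjusted p = 0.00843) fell. In the males alone Col4a1 (adjusted p = 0.0971) and Col5a1 (adjusted p = 0.143) did not pass, nor did Col5a1 on the 9 dNLS arrays (adjusted p = 0.054). The choroid plexus list mean was 6.86 on dNLS monogenic 1 and 3.04 to 4.94 on the other 8 arrays, so that choroid plexus genes cannot be compared between these groups.

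Nuclear transport genes gave 3 increases and 2 decreases among 49 (6.12% and 4.08%), both below the shares over all genes. Kpna4, an importin alpha, read 11.42, 11.32, 11.36, 11.39 and 11.44 in the bigenic mice and 11.004, 11.10, 11.05 and 10.98 in the monogenic mice (0.35 ± 0.05 SE, adjusted p = 5.9e-05), and Nup50, a nucleoporin, rose by 0.45 ± 0.10 (SE, adjusted p = 0.00623), as did the export receptor Xpo1 by 0.16 ± 0.04 (SE, adjusted p = 0.0182). Tnpo1, transportin (-0.54 ± 0.13 SE, adjusted p = 0.0112), and Xpot, the exporter of tRNA (-0.62 ± 0.14 SE, adjusted p = 0.00592), fell. Xpo1 lost its call without any 1 of dNLS monogenic 2 and 4 (adjusted p = 0.0599 to 0.0633). The number of increases was 2 to 7 with 1 array left out, with 7 without nontransgenic 6 and 6 without bigenic 5, and 6 genes fell without nontransgenic 6. Among 17 histone genes, 7 of them at the lowest value, 2 rose by 0.14 or less close to that value and did not pass after centring, and H2az2, a replication-independent variant, fell (-0.71 ± 0.22 SE, adjusted p = 0.0359). H2az2 lost its call without any 1 of dNLS bigenic 1, 2, 3 and 4 and dNLS monogenic 1, 2 and 3 (adjusted p = 0.0599 to 0.138). Zinc finger genes named Zfp, a list added after values were seen, gave 30 increases and 4 decreases among 172. These were 17.4% and 2.33%, against 7.76% and 6.54% of all genes, and the median was 0.09 against 0 over all genes. The largest after Zfp54 were Zfp825, at 9.29, 8.94, 9.26, 8.78 and 8.81 in the bigenic mice and 7.30, 7.31, 6.94 and 6.89 in the monogenic mice (1.89 ± 0.14 SE, adjusted p = 2.33e-07), and Zfp52 (1.84 ± 0.28 SE, adjusted p = 0.000182), with no overlap between groups in either.

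The monogenic mice themselves were compared with nontransgenic mice to see whether the transgene without its driver changed expression. With limma 0 of 12393 genes passed (0%), the lowest adjusted p was 0.841, and 196 genes (1.58%) had an unadjusted p under 0.05. Over the alternatives tried the unadjusted count was 153 to 1231, and 133 to 514 with 1 array left out. Without dNLS monogenic 1, 1 gene passed. Without nontransgenic 4 and 6, the 2 arrays with the largest 3' bias, 0 genes passed and 186 had an unadjusted p under 0.05. For the genes with the largest changes the monogenic values lay within the nontransgenic range, or within 0.2 of it, in Spag5, Otof, Myh7, Susd2, Tnfrsf12a, Zfp54 and Alg3. This comparison shares the monogenic arrays with the one above, so its values stand beside it as a description. With bigenic set against nontransgenic mice instead, 2759 genes (22.3%) passed.

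A comparison that shares no array with the one above, WT bigenic against nontransgenic mice, also adds tTA and a driven TDP-43 transgene, of wild-type form. In it 276 genes passed (2.23%), 85 higher and 191 lower. After centring of the arrays 152 passed, 14.5% of them higher. Without centring, 110 were called in both comparisons. They were 6.2% of the dNLS list, against 2.23% of all genes called in the WT comparison. They were 39.9% of the WT list, against 14.3% of all genes called in the dNLS comparison. Both comparisons came from 1 fit and share each gene's estimate of spread, so their calls are not independent. Of the 110, 33 were higher in both, 72 lower in both and 5 opposite. The WT count was fragile: 37, 60, 38 and 116 genes passed without WT bigenic 1, 2, 3 and 4, 139 without nontransgenic 7, and 1 when nontransgenic mice were split by line. That split left the 2 nontransgenic mice of line WT12 as the reference, as 6 of the 8 were of line NLS4. The cause of the drop was not tested. Otof (-2.66, adjusted p = 0.0244), Susd2 (-2.76, adjusted p = 0.0112), Myh7 (-1.86, adjusted p = 0.044), Smoc2 (-1.47, adjusted p = 0.0198), Slc17a6 (-0.95, adjusted p = 0.0106), Nova1 (-1.15, adjusted p = 0.0451) and Calb1 (-0.30, adjusted p = 0.0181) fell in WT bigenic mice as well. None of the 25 ATF4 and CHOP genes passed there in either direction and 1 of the 18 synthetases rose, against 2.23% of all genes called. At that low share, counts in lists of this size cannot show whether the lists changed in WT bigenic mice.

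The 2 effects were tested against each other as dNLS effect minus WT effect. The dNLS mice were of line NLS4 and the WT bigenic mice of line WT12. The form of TDP-43 and the line therefore cannot be told apart in this difference, and larger or smaller refers to these groups of mice. With nontransgenic mice split by line, it passed for 266 genes. The difference passed for 698 genes (5.63%), 429 above 0 and 269 below 0, and for 451 to 998 with 1 array left out, the lowest without dNLS monogenic 1. It passed for Spag5 (-3.37 ± 0.49 SE, adjusted p = 0.000588), Tnfrsf12a (2.85 ± 0.41 SE, adjusted p = 0.000546), Zfp54 (3.25 ± 0.35 SE, adjusted p = 7.48e-05), Alg3 (2.41 ± 0.33 SE, adjusted p = 0.000393), Gla (2.26 ± 0.28 SE, adjusted p = 0.000169), Tnnc1 (-2.19 ± 0.27 SE, adjusted p = 0.000161), Rprm (-1.40 ± 0.18 SE, adjusted p = 0.000213) and Wfs1 (-1.28 ± 0.19 SE, adjusted p = 0.000791), so the dNLS effect was the larger in these. Calb1 fell in both comparisons and by more in the dNLS one (difference -0.57 ± 0.08 SE, adjusted p = 0.000588). For Otof and Susd2, whose values in dNLS bigenic mice lay at or near the lowest value, the size of the dNLS decrease could not be seen in full and the effects cannot be compared. For Myh7 (-1.93 ± 0.67 SE, adjusted p = 0.116), Slc17a6 (-0.38 ± 0.21 SE, adjusted p = 0.399) and Nova1 (-0.78 ± 0.42 SE, adjusted p = 0.385) no difference was detected. In the ATF4 and CHOP list the difference passed above 0 for 6 of 25 genes, including Mthfd2 (2.69 ± 0.60 SE, adjusted p = 0.0133), Chac1 (2.46 ± 0.63 SE, adjusted p = 0.0277) and Asns (0.34 ± 0.08 SE, adjusted p = 0.0217), and not for Atf4 (0.62 ± 0.24 SE, adjusted p = 0.157) or Ddit3 (0.65 ± 0.24 SE, adjusted p = 0.146). Among synthetases it passed for 3 of 18, including Yars (0.73 ± 0.14 SE, adjusted p = 0.00457). Among Zfp genes it passed above 0 for 18 of 172 and below 0 for none.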

How the data were processed

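Values were used as the authors deposited them, as log2 levels of 22690 probe sets per array. The base was read from their span. Labelled cRNA was hybridised, per the labels, and Partek is named in the submitters' processing notes without version or role. How background, scaling and summary over probes were handled is not stated there, and precision is limited by the number of arrays.

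Probe sets that named 1 gene (20380; 691 named several, 1555 none and 64 were controls) were reduced to 12393 genes by the highest mean over 21 arrays. Of these, 12369 matched RefSeq (GRCm38.p6) by Entrez identifier. A linear model with 4 groups and labelled sex was fitted over the 21 arrays with limma 3.58.1 (R 4.3.3; lmFit, then eBayes with a trend on intensity), with Benjamini-Hochberg adjustment over all genes and a threshold of 0.05. Standard errors are those of this fit. For control ratios an exact permutation test, two-sided, was used. The code was tested on simulated data.

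The groups, the 47 gene lists (1170 entries, 1050 of them measured) and the rule for named genes were chosen with earlier results of these data known. The rule takes the 15 largest increases and decreases past the threshold, the 4 largest in each list, and all probe sets of Tardbp, Prnp, Camk2a and the genes at the tTA insertion site. Lists of Zfp genes and of muscle contraction, and the genes Atf4, Asns, Aars, Tars, Tpm3, Tnnc1, Ryr1 and Myl4, together with the remaining called members named to complete a short count, were added after values were seen. Promoter sequences are RefSeq's, from GRCm38.p6. Alternatives changed samples, covariates, test, scaling, filter and probe set.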

Additional observations from a re-analysis of the deposited data

Results flagged for a closer look

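A sample that stood apart from the others of its group, by a gap-to-range test that chance passes in about 5% of groups, was found in 50 of the 394 groups of values looked at. On dNLS bigenic 1 the group's highest values were those of Snx30 at 7.45 and the lowest those of Scn3b at 9.59. On dNLS bigenic 2 the group's highest values were those of Psmd3 at 11.11. On dNLS bigenic 3 the group's highest values were those of Myl4 at 9.39 and the lowest those of Gla at 4.98 and Susd2 at 2.09. On dNLS bigenic 4 the group's highest values were those of Gabrg1 at 9.50 and the lowest those of Slco1c1 at 11.43, Atf5 at 8.72, Stx1a at 12.80 and Tpm3 1449996_a_at at 5.76. On dNLS bigenic 5 the group's highest values were those of Otof at 2.62, Myh1 at 3.69, Rnf207 at 2.45, Eif5b at 10.97, Traip at 5.25 and Sars at 13.20 and the lowest those of Klf6 at 12.60, Elavl4 at 11.28, Ubqln2 at 12.21, Tm7sf2 at 6.48, Prnp at 13.67, Tpm3 at 11.85, Tardbp 1455655_a_at at 7.03 and Tpm3 1427567_a_at at 5.56. On dNLS monogenic 1 the group's lowest values were those of Hnrnph2 at 11.84. On dNLS monogenic 2 the group's highest values were those of Spag5 at 9.16, Atf5 at 8.38, Csf1r at 12.50, H2az2 at 9.95, Slc3a2 at 12.04, Stx1a at 13.79, beta-actin 3' minus 5' at 3.13, beta-actin 3' minus middle at 1.74, Gapdh 3' minus 5' at 1.79 and Tpm3 1436958_x_at at 11.76 and the lowest those of C9orf72 at 10.28, Camk2a at 6.57, Ptprn2 at 2.24, Mrps18a at 10.41, Nupr1 at 10.49, Dnajb6 1429776_a_at at 9.98 and Tardbp 1434419_s_at at 5.26. On dNLS monogenic 3 the group's highest values were those of Atf3 at 2.05 and the lowest those of Chga at 10.71. On dNLS monogenic 4 the group's highest values were those of Hspb3 at 6.47 and the lowest those of Zfp54 at 2.05, Otof at 5.37, Tars at 9.11 and Nptx1 at 12.07. These values are log2 levels, and differences of log2 levels for the control ratios. dNLS bigenic 5 was the 1 female of its group and accounted for 14 of the 50 values, and dNLS monogenic 2, which had the largest 3' bias of the 9 arrays, for 17. Their part in these values was not tested.

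For 67 of the 182 genes named with a change, many of them chosen for a large dNLS change, the dNLS effect (bigenic minus monogenic) and the WT effect (WT bigenic minus nontransgenic) differed by the test of the difference itself (limma, adjusted p under 0.05), as they did for 5.63% of all genes. The difference, dNLS effect minus WT effect in log2 units, was above 0 for Dach2 at 3.64, Zfp54 at 3.25, Rpp40 at 2.93, Tnfrsf12a at 2.85, Mthfd2 at 2.69, Etaa1 at 2.49, Chac1 at 2.46, Shmt2 at 2.42, Alg3 at 2.41, Fap at 2.33 and Gla at 2.26. Smaller differences above 0 were those of Opn3 at 2.25, Hspb3 at 2.19, Zfp825 at 2.00, Zfp52 at 1.96, Mettl27 at 1.82, Kif5a at 1.35, Kcnab2 at 1.11, Rpl14 at 1.07, Syvn1 at 1.04, Mrpl54 at 1.03 and Atf5 at 1.03. Below these came Zfp386 at 1.02, Slc7a3 at 0.93, Gaa at 0.91, Chga at 0.88, Neu1 at 0.78, Rtn4r at 0.78, Yars at 0.73, Lars at 0.67, Napa at 0.57, Mrpl9 at 0.55 and Wars at 0.54. The smallest above 0 were those of Klf6 at 0.53, Rgs2 at 0.51, Prnp at 0.47, Eif5b at 0.46, Mrpl22 at 0.45, Rpsa at 0.43, Npy at 0.42, Kpna4 at 0.35, Ndufa8 at 0.35 and Asns at 0.34. It was below 0 for Spag5 at -3.37, Pkp2 at -3.13, Ddit4l at -2.49, Tnnc1 at -2.19, Rnf207 at -2.09, Ryr1 at -1.68, Ramp3 at -1.52, Rprm at -1.40, Crym at -1.37, Wfs1 at -1.28 and Tm7sf2 at -1.02. Differences nearer to 0 were those of Jun at -0.99, Crip2 at -0.97, Neurod1 at -0.91, Nudt14 at -0.89, Perp at -0.88, Fdft1 at -0.74, Itpka at -0.71, Calb1 at -0.57, Psmb10 at -0.53, Nefl at -0.45 and Atp5l at -0.42. Also below 0 were Dnaja1 at -0.34 and Napb at -0.20.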

How the results depend on the processing

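The count of 1773 genes in the dNLS comparison rose to 2885 without nontransgenic 4 and 6, to 2890 with beta-actin bias as a covariate, to 2728 with Gapdh bias and to 4318 with array weights, and lay between 1373 and 2517 when 1 array was left out. It was 2155 on the 9 dNLS arrays alone, 1980 on the males, and 1658 after centring of the arrays. Centring moved the median change of all genes to -0.04 and the share of increases among the calls from 54.3% to 47.9%. The count of 0 for dNLS monogenic against nontransgenic mice became 1 without dNLS monogenic 1, and its range over left-out arrays was 0 to 1.

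The WT comparison moved more. Its 276 genes became 424 without nontransgenic 4 and 6, 505 without the sex term, 1 with the nontransgenic arrays split by line, 163 and 151 with beta-actin and Gapdh bias as covariates, 869 with array weights, 152 after centring (14.5% of them higher), 437 with the filter on low values and 170 with the mean of probe sets, and 37 to 579 with 1 array left out. The difference of effects, 698 genes, became 1185 without nontransgenic 4 and 6, 266 by line, 1256 and 1223 with the bias covariates, 2410 with array weights, and 451 to 998 with 1 array left out. The beta-actin difference between groups ran from -0.39 to 0.13 with 1 array left out, turning to 0.13 without dNLS monogenic 2, and the Gapdh 3' minus middle difference of -0.10 passed the test (exact permutation, adjusted p = 0.0317). The cause of these shifts was not tested.

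Of the 172 called genes that the text names, 107 kept their call under all 36 alternatives, 41 lost it without some array and 4 changed sign under some alternative. The size of the change moved in some genes that kept their call, among them Traip (-3.46 to -1.45), Doc2b (-3.24 to -1.28), Myh1 (-4.12 to -2.03), Cars (1.15 to 2.62) and Kif5a (0.92 to 1.99). On the 9 dNLS arrays alone, Atf3, Bcl2l1, Clba1, Col5a1, Cort, Cux1, Eif2b1, Gabrg1, Hnrnph2, Hspa4, Igfbp2, Kcna2, Lpl, Mef2c, Nts, Pcsk1n, Penk, Shmt2, Tuba4a, Tubb2a and Vars did not pass (adjusted p = 0.0503 to 0.17). In the males, Atf3, Atf6, Bcl2l1, Cebpg, Clba1, Col4a1, Col5a1, Cort, Cux1, Egr2, Eif2b1, Elavl3, Gabrg1, Hnrnpd, Hnrnph2, Hspa4, Iars, Igfbp2, Kcna2, Mef2c, Npy, Pcsk1n, Penk, Psmb10, Ptgs2, Rtn4r, Scn3b, Shmt2, Slc3a2, Sort1, Tuba1a, Tuba4a and Tubb2a did not pass (adjusted p = 0.0544 to 0.4). Without the sex term, Hnrnpd, Hspa5 and Slco1c1 did not pass (adjusted p = 0.0557 to 0.0795). With 5 groups by line, Elavl3 and Hnrnpd did not pass (adjusted p = 0.0536 to 0.054). Without the intensity trend, Hnrnpd did not pass (adjusted p = 0.0517). With robust eBayes, Hnrnpd did not pass (adjusted p = 0.0522). After centring, Atf6, Cebpg, Chchd10, Edem1, Eif2b1, Elavl3, Hnrnph2, Hspa4, Ina, Klf6, Mef2c, Rgs2, Slco1c1, Sort1, Tuba4a, Tubb2a, Tubb3 and Xpo1 did not pass (adjusted p = 0.0511 to 0.465). After quantile normalization, Edem1, Mef2c, Nudt14, Slco1c1 and Tubb2a did not pass (adjusted p = 0.0512 to 0.177). With the mean of probe sets, Bcl2l1, Cux1, Edem1, Elavl3, Elavl4, Gabrg1, Hnrnpd, Hspa5, Klc1, Klf6, Lpl, Napb, Nptx1, Ptgs2, Rgs4, Syncrip, Tnpo1 and Tuba4a did not pass (adjusted p = 0.0502 to 1). Among all probe sets, Bcl2l1, Elavl3, Hnrnpd, Pcsk1n and Slco1c1 did not pass (adjusted p = 0.0522 to 0.0555). Sort1 (0.048), Dnajb6 (0.57), Hspa4 (0.021) and Mef2c (0.017) turned positive with the mean of probe sets, as did the uncalled Tpm3 (0.72), and the uncalled Camk2a turned to 0.20 in males. The uncalled Ddit4 turned to -0.023 with beta-actin bias, -0.060 with Gapdh bias and -0.012 after centring, and lay between -0.23 and 0.17 with 1 array left out. The uncalled Farsb turned to 0.012 with beta-actin bias, 0.026 with Gapdh bias and 0.065 with array weights, and lay between -0.092 and 0.089 with 1 array left out. Some uncalled genes passed under an alternative: Nupr1 with beta-actin bias, with Gapdh bias and with array weights; Ptprn2 on the 9 dNLS arrays alone, with beta-actin bias and with array weights; Tardbp with beta-actin bias and with Gapdh bias. For 3299 genes at the lowest value on all 9 arrays no change could be seen. No paired analysis was possible because the labels' numbers run through the arrays and pair no mice.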
